A study of Mus musculus with 14 samples.

Results

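The genes described here are 10 members of the route from glucose to exported lactate, followed in intestinal regulatory T cells (Tregs) with and without the AP-1 transcription factor JunB. They are the glucose transporters Slc2a1 and Slc2a3, the hexokinases Hk1 and Hk2, phosphofructokinase Pfkp, aldolase Aldoa, phosphoglycerate kinase Pgk1, pyruvate kinase Pkm, lactate dehydrogenase Ldha and the lactate carrier Slc16a3. All 10 symbols were found by gene identifier among the 55487 genes of one deposited count table and the 53801 genes of the other, and all 10 passed the filter on low values in every comparison.

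The study asked which genes Tregs of the gut need JunB to express, and it sequenced bulk RNA of sorted cells in 14 libraries of 6 groups. In the Foxp3YFPcre line, male JunB F/+ Foxp3YFPcre (HET) and JunB F/F Foxp3YFPcre (KO) mice gave 2 libraries each of Foxp3(YFP)+ CD4+ cells of the Peyer's patches (PP), sorted through a further surface gate that is narrower than all Tregs, without tamoxifen. In the inducible line, JunB F/+ (iHET) and JunB F/F (iKO) mice carrying Foxp3ERT2cre and Rosa26-tdTomato were given tamoxifen by gavage 3 times (8 mg, on days 0, 1 and 3), with collection on day 7. Their cells were sorted as TCRb+CD4+Foxp3(EGFP)+tdTomato+, from the colon lamina propria (3 iHET and 3 iKO libraries) or, with a further CD25- gate, from the PP (2 iHET and 2 iKO libraries).

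The controls of both lines carry Cre and 1 floxed Junb allele. Cre is driven from the Foxp3 locus, and the study's methods report unintended germline deletion of Junb in the YFPcre line. In the inducible line, replicate 1 of each group was male and the others were female. All mice were adult littermates, with genotypes housed together. Colon and PP cells of the inducible line differed in organ, in the CD25- gate and in isolation, since by the labels and the study's methods Dispase, DTT, EDTA washes and a Percoll gradient were used for the colon and not for the PP, so these cannot be told apart. Totals ran from 26274861 to 35508709 assigned reads per library. The colonic libraries of a group came from different mice by the study's methods; the labels give no animal numbers for the others, and p-values measure the spread between the libraries of a group.

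Glycolysis splits glucose into pyruvate in the cytosol. Glucose enters through facilitative transporters, is trapped by hexokinase, and is committed to the pathway by phosphofructokinase; lactate dehydrogenase regenerates NAD from pyruvate, and monocarboxylate carriers release the lactate together with a proton. Activated T cells raise the pathway under mTOR, MYC and HIF-1, whereas Tregs are known for a larger reliance on oxidative metabolism and for tolerance of lactate.

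The stretch upstream of the start site is shown for 3 members. Slc16a3 was the member called in KO against HET PP Tregs, and it was not called after induced loss. Hk2 differed most between organs, and Ldha carried the most ACGTG matches of all members. The sequences are RefSeq windows on GRCm38.p6, each 250 bases long and read 5′ to 3′ on the gene's strand: Slc16a3 at chr11:120948817-120949066 on the plus strand, Hk2 at chr6:82774455-82774704 on the minus strand and Ldha at chr7:46845554-46845803 on the plus strand. Capitals mark ACGTG, the core of the hypoxia response element, or TGACGTCA, the cAMP response element that AP-1 factors can also bind, each on either strand.
Slc16a3: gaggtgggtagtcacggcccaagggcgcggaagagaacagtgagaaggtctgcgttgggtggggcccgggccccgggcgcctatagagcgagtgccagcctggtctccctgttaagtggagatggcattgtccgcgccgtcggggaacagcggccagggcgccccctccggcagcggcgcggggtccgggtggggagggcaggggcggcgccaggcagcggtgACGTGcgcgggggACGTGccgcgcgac
Hk2: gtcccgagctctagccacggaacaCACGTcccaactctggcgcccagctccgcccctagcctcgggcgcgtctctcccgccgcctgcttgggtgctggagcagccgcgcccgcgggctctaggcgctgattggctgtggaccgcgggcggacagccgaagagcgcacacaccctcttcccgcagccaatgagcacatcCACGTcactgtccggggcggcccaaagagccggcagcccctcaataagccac
Ldha: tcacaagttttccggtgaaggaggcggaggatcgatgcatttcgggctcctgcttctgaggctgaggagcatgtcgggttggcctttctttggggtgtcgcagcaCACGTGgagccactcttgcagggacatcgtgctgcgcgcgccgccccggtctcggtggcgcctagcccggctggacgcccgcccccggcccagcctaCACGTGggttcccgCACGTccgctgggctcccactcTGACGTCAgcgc

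Windows running from 250 bases before to 50 bases after the start were searched for 5 motifs on both strands. RefSeq gave 14 such windows for 9 members, some of them overlapping, and none for Slc2a3. ACGTG stood in 9 of the 14 member windows and in at least 1 window of 8 of the 9 members, against 19.6% of all 32851 mouse windows. GCGTG, the other form of the hypoxia element, stood in 5 of the 14 windows, against 32.4% of all windows. The AP-1 motif TGANTCA was found in 1 member window, of Aldoa, against 7.81% of all windows, and TGACGTCA in 1, of Ldha, against 1.79%. CACGTG, the MYC and MAX motif that contains ACGTG, was found only in that Ldha window among the members, against 7.15% of all windows. These are matches of letters and not sites.

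Per kilobase of exon, and on TMM-scaled CPM (reads as a share of the library total, with edgeR's correction for library composition), the order of the members was alike in the 6 groups. Ldha was the highest in each group, with group means of 190 to 270 CPM per kb, followed by Aldoa with 148 to 246 and Pkm with 113 to 169. Hk1, Slc2a1, Slc2a3, Pfkp and Slc16a3 formed a middle range, and Hk2 and Pgk1 were the lowest, with group means between 0.745 and 3.95 CPM per kb. Slc16a3 ranked 6 in HET and 8 in KO PP Tregs, and Slc2a1 stood above Hk1 in the colon and below it in the PP. In the iHET colon, Ldha and its neighbour Aldoa overlapped between libraries, as did Aldoa and Pkm, Slc2a3 and Pfkp, Slc16a3 and Hk2, and Hk2 and Pgk1. In the iKO colon the last 3 of these pairs overlapped, in HET PP Tregs Ldha and Aldoa and Slc2a3 and Pfkp did, and in the other groups all neighbours in the order were apart. The place of Pgk1 is not a statement about its expression: 53.9% of its 50-base stretches also occur in 5 pseudogenes, and the authors kept no read that mapped to several places. The same applies in part to Pkm with 25.8%, Ldha with 9.26% and Aldoa with 6.43% of stretches shared with other genes, and Pfkp shares 748 exon bases with Pitrm1 on the other strand. Slc16a3 and Hk2 share none. In GRCm38, Slc16a3 (ENSMUSG00000025161.16) lies on the plus strand at chr11:120948480-120960868, Hk2 (ENSMUSG00000000628.10) on the minus strand at chr6:82725025-82774454, Slc2a1 (ENSMUSG00000028645.11) on the plus strand at chr4:119108711-119137983 and Slc2a3 (ENSMUSG00000003153.10) on the minus strand at chr6:122727809-122801640.

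The tissue and cell type labels were checked on their markers. Foxp3 stood between 59.7 and 155 CPM and Cd3e between 786 and 1200 CPM in the 14 libraries. Markers of other cells gave reads in every group: the summed level of 15 epithelial markers was 65.3 to 2205 CPM, that of 10 B cell markers 62.9 to 248 CPM and that of 10 myeloid markers 135 to 447 CPM (list sums are without TMM scaling). The low sums were unevenly made up. In KO PP Tregs Epcam stood at 37.7 to 38.3 CPM (TMM-scaled), while Krt19 had 0 to 11 reads and Cldn7 4 to 5. In CD25- PP Tregs Cst3 stood at 60.1 to 76.2 CPM and Adgre1 at 41.3 to 56.0 CPM. Cd14 had 0 to 17 reads there and Itgam 0 to 13. Junb itself fell from 4752 and 5329 CPM in HET to 606 and 561 CPM in KO PP Tregs. In CD25- PP Tregs it stood at 5547 and 4182 CPM in iHET and at 891 and 911 CPM in iKO, and in colonic Tregs at 6865, 8471 and 7514 CPM in iHET and at 1012, 993 and 1029 CPM in iKO.

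**Figure D1:**
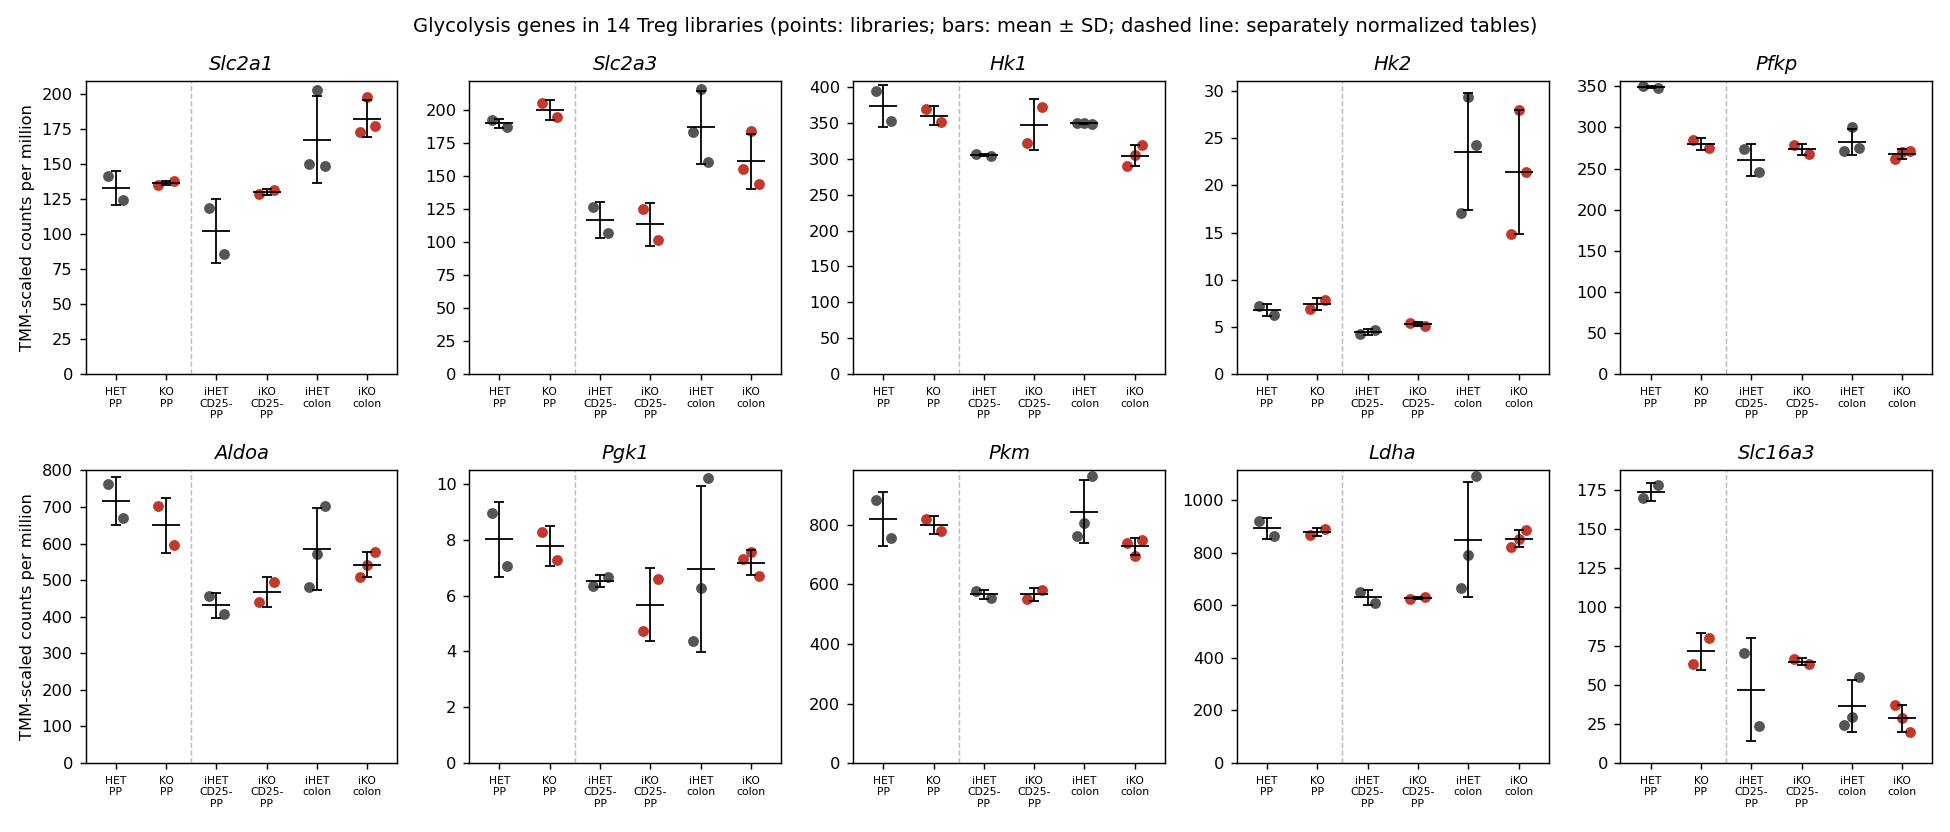
TMM-scaled CPM (linear axes from 0) of the 10 members in each library, with group mean and SD; the dashed line parts the YFPcre libraries from the inducible line, which were normalized separately. The largest gaps between groups are those of Slc16a3 between HET and KO PP Tregs and of Hk2 between colonic and CD25- PP Tregs.

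The comparison of KO with HET PP Tregs asked which members change when JunB is missing from the time Foxp3 is first expressed. Slc16a3, which encodes the carrier MCT4 that exports lactate from glycolytic cells, was the member that fell. The HET libraries held 170.2 and 178 CPM against 63.4 and 80.2 CPM for KO, so that the groups lay far apart. The SD was 5.73 CPM in HET and 11.9 CPM in KO. The log2 fold change was -1.28 (SE 0.115, 95% interval -1.54 to -1.01, edgeR quasi-likelihood test, adjusted p = 0.00218), a level 2.43-fold lower, and it ranked 21 among 12224 genes tested. Of the 10 members 1 was called, beside 3.35% of all genes tested in either direction and 2.36% lower. In bulk RNA, fewer cells that express Slc16a3 and less Slc16a3 RNA per cell cannot be told apart.

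The uptake and hexokinase steps did not pass the test in KO PP Tregs. Slc2a1 (GLUT1, the main glucose carrier of activated T cells) stood at 141 and 124 CPM in HET and at 135 and 137 CPM in KO, and its interval ran from -0.16 to 0.24 on the log2 scale. Slc2a3 (GLUT3, a carrier of high affinity) stood at 192 and 187 CPM in HET and at 205 and 195 CPM in KO, a log2 difference of 0.08 with an interval of -0.10 to 0.25. The KO libraries of Slc2a3 lay above both HET libraries, which by itself is common here, since 43.6% of genes tested had groups that did not overlap. Hk1, the hexokinase of resting cells, had a log2 difference of -0.05 (-0.25 to 0.15). Hk2, the inducible hexokinase that binds mitochondria, was low in all 4 libraries at 6.34 to 7.90 CPM, and its interval was wider, from -0.40 to 0.66.

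Further down the pathway, Pfkp, the platelet form of phosphofructokinase, stood at 350.3 and 348 CPM in HET and at 285 and 274 CPM in KO. Its libraries did not overlap, but the log2 difference of -0.32 (SE 0.0749, interval -0.49 to -0.15) missed the threshold in the quasi-likelihood test (adjusted p = 0.0664). It passed in the exact test of edgeR that the study used (adjusted p = 0.0352) and in DESeq2 (adjusted p = 0.00398). Aldoa had a log2 difference of -0.14 (-0.39 to 0.11), Pgk1 of -0.04 (-0.58 to 0.49), Pkm of -0.04 (-0.27 to 0.20) and Ldha of -0.02 (-0.22 to 0.17). Ldha, the enzyme that makes the lactate Slc16a3 exports, stood at 922 and 864 CPM in HET and at 868 and 889 CPM in KO. The median log2 difference of the 10 members was -0.04, beside 0.00 over all genes tested.

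Around the members, 94 genes of 10 lists were followed: the other glycolytic enzymes, other sugar carriers, other lactate carriers and their chaperones, regulators of phosphofructokinase, the fates of pyruvate, gluconeogenesis, the pentose phosphate route, HIF regulators, hypoxia targets outside glycolysis and growth regulators. In KO against HET PP Tregs, 80 of them were tested, 1 rose and 3 fell, beside 3.35% of all genes called in either direction and 2.36% lower. None of 15 other glycolytic enzymes passed, among them Eno1 (enolase, log2 difference 0.09), Gpi1 (0.06) and Tpi1 (-0.24). Of the partners of Slc16a3, the second lactate carrier Slc16a1 (MCT1) had a log2 difference of -0.27 (adjusted p = 0.574) and the carrier chaperone Bsg one of -0.00 (adjusted p = 0.998). Epas1, which encodes HIF-2α, rose by 0.73 (adjusted p = 0.00368), from 224 and 219.9 CPM to 363 and 375 CPM. Hif1a, its relative that drives glycolytic genes in hypoxia, stood lower in both KO libraries with a log2 difference of -0.33 that did not pass (adjusted p = 0.123). Max, the partner of MYC, fell by 0.51 on the log2 scale (adjusted p = 0.0492; it missed the threshold with the size factors of DESeq2, at 0.0513, and without either replicate of either group, at 0.0831 to 0.33), whereas Myc had a log2 difference of -0.11 (adjusted p = 0.836).

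The remaining 2 genes that fell are known from other tissues. Slc5a1, the sodium-driven glucose carrier of the intestinal epithelium, had 460 and 261 reads in the HET libraries and 1 read in each KO library (adjusted p = 0.000606). Fbp2, the muscle form of the gluconeogenic fructose bisphosphatase, had 97 and 52 reads in HET and 3 in each KO library (adjusted p = 0.0098). Epithelial markers moved with the genotype: 11 of 14 tested fell and none rose, and their summed level was 282 and 185 CPM in the HET libraries against 76.8 and 65.3 CPM for KO, with the keratin Krt8 at 348 to 540 reads in HET and 14 to 27 in KO. The B cell markers summed to 220.5 and 248 CPM in HET, against 117 and 180.5 CPM for KO, with 1 of 10 called lower, while the myeloid sums overlapped, with HET at 188 and 245 CPM, KO at 219 and 169.7 CPM and none of 8 called. Foxp3 rose by 0.51 and Il2ra by 0.73 on the log2 scale, with adjusted p of 0.0167 and 0.0199. The part of these other cells in the fall of Slc16a3 was not tested.

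In CD25- PP Tregs of the inducible line, the question was whether the members depend on JunB in mature cells, 7 days after deletion began. No member passed the test, and neither did any of the 17079 genes tested (0% called), Junb included (log2 fold change -2.44, adjusted p = 0.094). At an unadjusted p under 0.05 there were 618 genes and no member; the exact test called 43 genes and DESeq2 35, with no member among them.

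Slc16a3 did not pass the test in this gate. The iHET libraries held 70.8 and 23.7 CPM against 66.8 and 63.6 CPM for iKO, so the controls lay far apart and enclosed the iKO values. The log2 difference was 0.46 with an interval of -0.64 to 1.55 and an adjusted p of 0.999 (quasi-likelihood test). Its direction rested on single controls: it was -0.13 without iHET replicate 2, a female, and 1.45 without iHET replicate 1, a male. With the replicate number as a block it was 0.65. The difference between this result and that of the YFPcre line was not tested, since the lines differ in gate, sequencing and table.

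Slc2a1 stood at 118 and 86.0 CPM in iHET and at 128 and 131 CPM in iKO CD25- PP Tregs, with a log2 difference of 0.34 (-0.08 to 0.76). Both iKO libraries lay above both iHET libraries for Slc2a1, Hk1 (306 and 304 against 322 and 372 CPM) and Hk2 (4.23 and 4.67 against 5.47 and 5.17 CPM), 3 of 10 members, beside 16% of all genes whose iKO libraries lay above; none was lower without overlap. Pkm and Ldha were nearly level, both with a log2 difference of -0.01 and intervals within -0.30 and 0.29. Among the 88 genes tested of the other lists, 54 had a positive and 34 a negative difference and none passed. The gene with the lowest p of the hypoxia targets was Ndrg1 (log2 difference 0.65, adjusted p = 0.999).

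Colonic Tregs were tested with the mouse number standing for the cage term that the study's methods call for. The labels name no cages, so that equal numbers share a cage was assumed. Junb fell by 2.91 (quasi-likelihood test, adjusted p = 0.0183) and was the only gene called of 16313 (0.00613%). Without replicate 1 or 2 of either group its adjusted p was 0.123 to 0.247. No member was called; 632 genes had an unadjusted p under 0.05, no member among them, and the likelihood ratio test of the study called 25 genes and DESeq2 50, again without a member. Hk1 stood at 349 CPM in iHET replicate 1, 349.8 in replicate 2 and 348 in replicate 3, and at 289, 305 and 318 CPM in iKO. The iKO libraries were all lower, and the log2 difference was -0.20 (-0.44 to 0.03). Pkm (761, 807 and 964 CPM in iHET, 739, 697 and 749 CPM in iKO) and Pfkp were likewise lower in all 3 iKO libraries, with log2 differences of -0.21 and -0.08. These are 3 of 10 members without overlap, all of them lower in iKO, beside 4.49% of all genes tested.

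Uptake by the colonic cells gave values on both sides. Slc2a3 stood at 183, 216 and 161 CPM in iHET and at 155, 184 and 144 CPM in iKO, lower in iKO within each number, with a log2 difference of -0.21 (-0.44 to 0.01). Slc2a1 had one of 0.13 (-0.12 to 0.39). Ldha stood at 667, 791 and 1091 CPM in iHET and at 823, 853 and 885 CPM in iKO, a log2 difference of 0.03 (-0.33 to 0.40). The spread of Ldha lay in the iHET libraries, whose replicate 3 was also the highest for Aldoa, Pgk1, Pkm and Slc16a3. That library had the highest sum of 14 proliferation markers, 985 CPM beside 356 to 551 CPM in the other 5 colonic libraries, and of the myeloid markers, 446.5 CPM beside 169.7 to 317 CPM; their part in these levels was not tested.

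Slc16a3 in colonic Tregs stood at 24.6, 29.5 and 55.4 CPM in iHET and at 37.5, 28.8 and 20.1 CPM in iKO. The log2 difference was -0.29 with a wide interval of -1.31 to 0.73, and it turned to 0.29 without replicate 3 of either group. Of the 86 other pathway genes tested, 48 had a positive and 38 a negative difference and none passed. The HIF regulators were lower in 7 of 8 genes, Hif1a by a log2 difference of -0.31 that did not pass (adjusted p = 0.947). The median over the 10 members was -0.13, beside 0.00 over all genes.

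**Figure D2:**
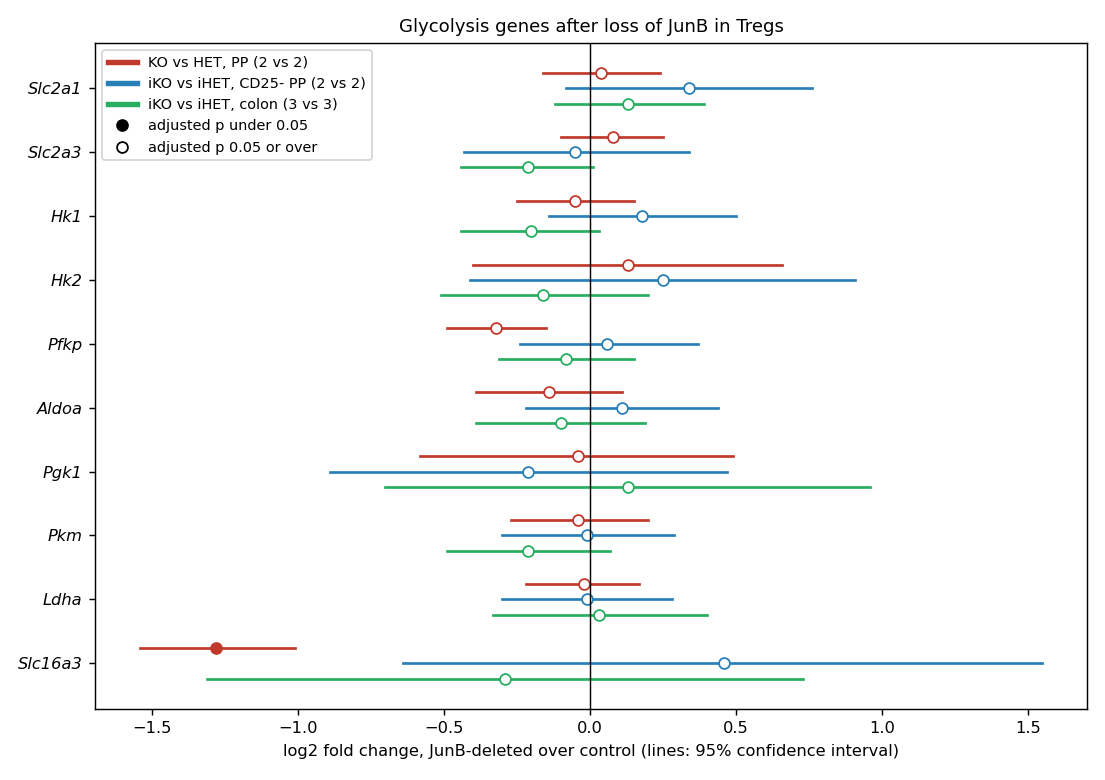
Log2 fold changes of the 10 members, JunB-deleted over control, with 95% confidence intervals, in the 3 genotype comparisons; filled points have an adjusted p under 0.05. Slc16a3 in KO PP Tregs, at -1.28, is the one filled point, and the other Slc16a3 intervals run from -0.64 to 1.55 and from -1.31 to 0.73.

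The organ comparison set colonic against CD25- PP Tregs within each genotype of the inducible line, in 1 model of the 10 libraries; it uses the same libraries as the genotype comparisons of that line. Hk2 rose in both genotypes. It stood at 4.23 and 4.67 CPM in iHET PP Tregs and at 17.1, 29.4 and 24.3 CPM in iHET colonic Tregs, and at 5.47 and 5.17 CPM against 14.8, 27.9 and 21.4 CPM in iKO Tregs. Each colonic library was above every PP library by a wide margin. The log2 fold change was 2.40 in iHET (SE 0.320, interval 1.68 to 3.11, edgeR quasi-likelihood test, adjusted p = 0.00377) and 2.00 in iKO (SE 0.313, interval 1.30 to 2.70, adjusted p = 0.0111), or 5.28-fold and 4-fold. The call was lost without iHET PP replicate 2 (log2 fold change 2.46, adjusted p = 0.054), and in iKO without iKO PP replicate 1 (2.04, adjusted p = 0.0888) or replicate 2 (1.96, adjusted p = 0.116), where 1 PP library of that genotype was left.

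In iHET Tregs 4 of 10 members were called, all higher in the colon, beside 6.45% of the 18626 genes tested in either direction and 4.22% higher. Slc2a1 rose by 0.71 (118 and 86.0 CPM in PP, 150.2, 203 and 149 CPM in colon; adjusted p = 0.0468) and Slc2a3 by 0.68 (126 and 107 CPM in PP, 183, 216 and 161 CPM in colon; adjusted p = 0.0468). Pkm, which makes pyruvate, rose by 0.58 (577 and 555 CPM in PP, 761, 807 and 964 CPM in colon; adjusted p = 0.0288). The colonic libraries of these 3 genes all lay above the PP libraries. Their calls were close to the threshold. Leaving out iHET PP replicate 2 ended the call for Slc2a1 (0.49, adjusted p = 0.376), Slc2a3 (0.56, adjusted p = 0.35) and Pkm (0.54, adjusted p = 0.214), and leaving out colonic iHET replicate 2 did so with adjusted p of 0.127, 0.139 and 0.0586. Slc2a1 also lost its call without colonic iHET replicate 3 or any 1 colonic or PP iKO library (0.0526 to 0.0762), Slc2a3 without colonic iHET replicate 1, iHET PP replicate 1 or any 1 iKO library (0.0549 to 0.0978), and Pkm without iHET PP replicate 1 (0.0927) and iKO PP replicate 2 (0.0505). With upper-quartile scaling Slc2a3 missed the threshold (adjusted p = 0.0516). With the mouse number as a block, Slc2a1 (adjusted p = 0.0692) and Pkm (adjusted p = 0.0574) missed the threshold; in this line the number also goes with the labelled sex.

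In all, 7 of 10 members were higher in every iHET colonic library than in either iHET PP library, beside 19.1% of all genes. Aldoa and Ldha were among them without passing, with log2 differences of 0.44 (adjusted p = 0.145) and 0.43 (adjusted p = 0.198). Ldha stood at 650.1 and 609 CPM in PP and at 667, 791 and 1091 CPM in the colon. Both passed without colonic iHET replicate 1, at 0.56 (adjusted p = 0.0434) and 0.57 (adjusted p = 0.0486). Hk1 (0.20), Pfkp (0.12) and Pgk1 (0.09) had small differences, and that of Pgk1 turned to -0.29 without colonic iHET replicate 3. Slc16a3 had a log2 difference of -0.37 (-1.39 to 0.65), which was 0.62 without iHET PP replicate 1. The median of the 10 members was 0.44, beside -0.01 over all genes tested.

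In iKO Tregs Hk2 was the 1 member called of 10, beside 4.07% of genes in either direction and 2.48% higher. Slc2a1 (0.49, adjusted p = 0.156), Slc2a3 (0.51, adjusted p = 0.127), Pkm (0.36, adjusted p = 0.136) and Ldha (0.44, adjusted p = 0.201) had intervals above 0 and did not pass over all genes. Of the 10 members 7 lay higher in every colonic library, beside 22.4% of genes, and 2, Hk1 and Slc16a3, lower in every one, beside 21.7%. Slc16a3 was the lower one by far: iKO PP Tregs held 66.8 and 63.6 CPM and iKO colonic Tregs 37.5, 28.8 and 20.1 CPM, while Ldha was higher in the colon. Its log2 difference of -1.18 (-2.19 to -0.16) did not pass (adjusted p = 0.176), except without a filter on low counts (-1.15, adjusted p = 1.02e-06).

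**Figure D3:**
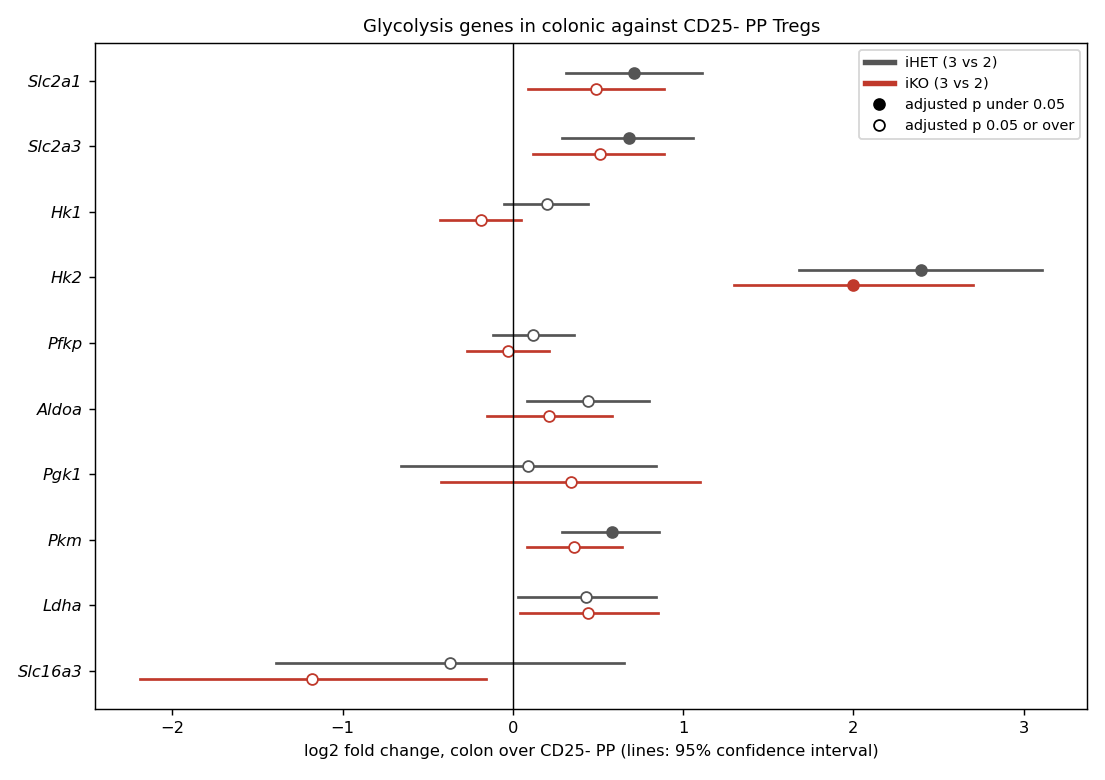
Log2 fold changes of the 10 members, colonic over CD25- PP Tregs, with 95% confidence intervals, in iHET and iKO; filled points have an adjusted p under 0.05. Hk2 lies at 2.40 and 2.00, Slc2a1, Slc2a3 and Pkm are filled in iHET alone, and Slc16a3 lies on the other side of 0 at -0.37 and -1.18; no difference between the genotypes passed the interaction test.

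Some other genes of the pathway passed between the organs. In iHET Tregs, 10 of the 92 genes tested in the other lists were higher in the colon and 2 lower, beside 6.45% of all genes in either direction and 4.22% higher. In iKO 4 were higher and 3 lower, beside 4.07% and 2.48%. Hk3, a hexokinase known from myeloid cells, rose by 2.29 in iHET and 2.25 in iKO (adjusted p = 0.000864 and 0.0012), from 20.9 to 23.4 CPM in the 4 PP libraries to 79.2 to 137 CPM in the 6 colonic ones, and passed in all 16 alternatives in either genotype. The neuronal enolase Eno2 rose by 1.11 in iHET. Slc16a1, the carrier MCT1, rose by 1.10 in iHET (adjusted p = 0.036) and stood higher in iKO by 0.94 (adjusted p = 0.074), and the carrier chaperone Emb rose by 1.17 in iHET. Slc2a2, the glucose carrier of enterocytes and liver, and G6pc, glucose-6-phosphatase, fell in iHET, from 138 and 135 reads to 2, 7 and 0 and from 87 and 46 reads to 0, 2 and 0. Of these calls Slc16a1, Emb and G6pc missed the threshold with the mouse number as a block (adjusted p = 0.0641, 0.0881 and 0.0633). Eno2, Slc16a1 and Emb did not hold without 7 or 8 of the 10 libraries in turn, iHET PP replicate 2 among them (adjusted p = 0.244, 0.315 and 0.252), and G6pc did not without any one of the 3 colonic iHET libraries (0.0697 to 0.0866).

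Among 11 hypoxia targets outside glycolysis, 4 rose in iHET and 2 in iKO, with medians of 0.68 and 1.16 over the list. Ero1l, an oxidase of the endoplasmic reticulum, rose by 1.23 and 1.02, and Mxi1, an antagonist of MYC, by 1.45 and 1.17. Ndrg1 rose by 1.98 and the peptide gene Adm by 3.25 in iHET, Adm from 38 and 19 reads to 75, 631 and 222. Without iHET PP replicate 2, Ero1l (adjusted p = 0.0886), Mxi1 (0.125), Ndrg1 (0.141) and Adm (0.31) missed the threshold in iHET; without either iKO PP replicate, Ero1l (0.13 and 0.0645) and Mxi1 (0.193 and 0.202) missed it in iKO. HIF regulators were mixed: Hif1a stood 0.57 higher in iHET (adjusted p = 0.0611) and 0.05 in iKO, and Epas1 fell by 1.44 in iKO (adjusted p = 0.0138), from 296 and 408 CPM to 118, 146 and 124 CPM. Pfkfb3 and Pfkfb4, which make the activator of phosphofructokinase, fell in iKO by 0.72 and 0.92. These 3 calls were lost without iKO PP replicate 1 (adjusted p = 0.054, 0.188 and 0.286) or replicate 2 (0.133, 0.153 and 0.0541). With the mouse number as a block, Adm missed the threshold in iHET (adjusted p = 0.0787), and Mxi1 (0.0968), Pfkfb3 (0.0804) and Pfkfb4 (0.0907) missed it in iKO. Of 16 alternatives in iKO, Epas1 missed the threshold in 2, Ero1l in 4, Mxi1 in 6, Pfkfb3 in 8 and Pfkfb4 in 9. Of 16 in iHET, Adm missed it in 8, and Ero1l, Mxi1 and Ndrg1 in 1 each. Myc had log2 differences of -0.16 and -0.12 (adjusted p = 0.475 and 0.587).

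Other features moved with the organ. Sums of plasma cell markers were 22.0 to 41.9 CPM in PP and 70.7 to 116 CPM in the colon, and of the 3 tested Jchain was called higher in iHET and none in iKO. Of 14 proliferation markers all had a positive difference in both genotypes, with 1 called in iHET and none in iKO, and their sums were 294 to 349 CPM in PP and 356 to 985 CPM in the colon. Of 10 early genes of cell dissociation 3 were called higher in iHET and 1 in iKO, among them Atf3. All 10 myeloid markers had a positive difference, 3 called in iHET and 1 in iKO, Cd14 in both, with sums of 135 to 178 CPM in PP and 169.7 to 446.5 CPM in the colon. Epithelial sums were 248 to 648 CPM in PP and 222 to 2205 CPM in the colon. Of the 15 epithelial markers, 9 had a positive difference in iHET and 12 in iKO, with medians of 1.03 and 2.13. None was called higher, and 2 were called lower in iHET and 1 in iKO. Fabp1 had no read in any colonic library, whereas Krt19 stood at 4.19 to 47.3 CPM in PP and 45.4 to 664 CPM in the colon. Il2ra, which encodes the CD25 of the gate, rose by 1.71 and 1.63. The part of these other cells in the higher Hk2, Hk3 and transporter levels was not tested.

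The test of whether the organ difference depended on genotype called no gene of 18626 (0%), with 622 at an unadjusted p under 0.05 and 2 in DESeq2. Interaction values of the members lay between -0.81 (Slc16a3, interval -2.27 to 0.65) and 0.25 (Pgk1), and 8 of 10 were negative. Hk2 had one of -0.40 (-1.32 to 0.53), Slc2a1 of -0.22 (-0.78 to 0.34), Slc2a3 of -0.17 (-0.71 to 0.36) and Pkm of -0.21 (-0.61 to 0.18), so the calls made in iHET alone were not shown to differ from iKO. Hk1 had the lowest p of the members, with -0.39 (-0.73 to -0.04, unadjusted p = 0.0317, adjusted p = 1).

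Shares of paired genes, computed per kilobase within each library and given as a description, separate a change of one isoform from a change of both. Hk2 made up 1.94% to 2.37% of Hk1 plus Hk2 in the 4 CD25- PP libraries and 6.52% to 11.6% in the 6 colonic libraries. In PP Tregs of the YFPcre line it was 2.51% to 3.12%. Of Hk1, Hk2 and Hk3 together, Hk3 made up 11.6% to 14.8% in CD25- PP Tregs and 32.9% to 45.3% in the colon. Its share was 0.332% to 0.949% in PP Tregs of the YFPcre line, which differs from the inducible line in gate, sequencing and table. Genes at 1 CPM or more numbered 11832 to 12290 in the YFPcre libraries and 16245 to 17514 in those of CD25- PP Tregs. The part of these differences in the Hk3 share was not tested. The MCT4 gene Slc16a3 made up 51.0% and 58.5% of Slc16a1 plus Slc16a3 in HET and 37.2% and 37.3% in KO PP Tregs. In the inducible line its share was 22.2% to 37.9% in CD25- PP Tregs and 7.52% to 25.4% in the colon. Slc16a1 was thus the more abundant carrier per kilobase in every library of this line, and in both KO PP libraries. Slc2a1 made up 62.5% and 66.0% of the transporter pair in iHET and 68.0% and 72.7% in iKO CD25- PP Tregs, and 62.9% to 66.0% in iHET and 68.9% to 71.8% in iKO colonic Tregs. Its iKO shares thus lay above the iHET shares in both organs, while HET and KO PP Tregs overlapped at 57.6% to 60.3%. Neither Slc2a1 nor Slc2a3 passed the genotype test in either organ, and how often shares of other gene pairs part the genotypes was not tested. Ldha made up 85.3% to 88.6% of Ldha plus Ldhb in CD25- PP Tregs and 92.5% to 94.7% in the colon.

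**Figure D4:**
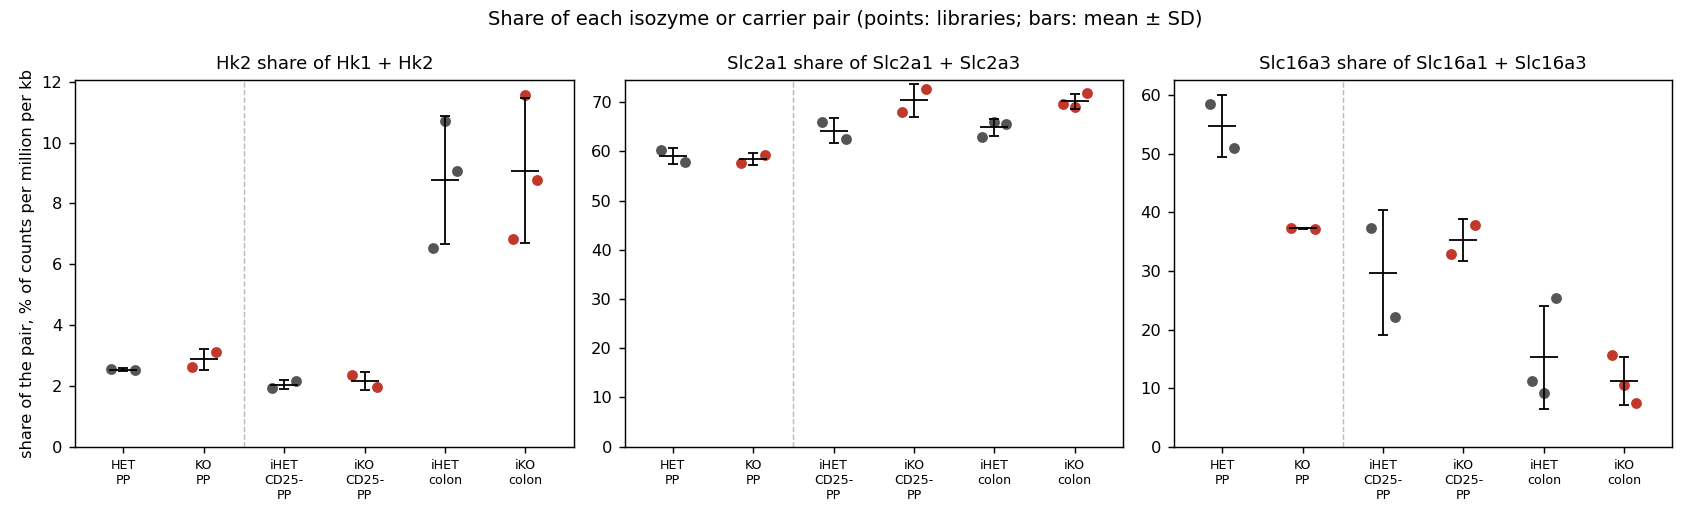
Share of 1 member of a pair in each library, in percent of the pair's TMM-scaled CPM per kilobase (axes from 0), with group mean and SD. The Hk2 share is at most 3.12% in PP Tregs and at least 6.52% in colonic Tregs, and the Slc16a3 share is lower in KO than in HET PP Tregs.

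Across the 10 libraries of the inducible line, the members were described by how their log2 levels moved together. The 45 pairs of members had a median Pearson r of 0.451, 36 were positive and 8 were over 0.8; after centring within organ the median was 0.346 and 2 pairs were over 0.8. These libraries share the organ difference, so r is a description. Hk2 went with Slc2a3 (0.883; 0.410 centred within organ) and Pkm (0.878; 0.182 centred), Aldoa with Ldha (0.931; 0.850 centred) and Pkm (0.891; 0.783 centred), and Slc16a3 had negative r with Hk2 (-0.518; 0.064 centred within organ) and Slc2a3 (-0.410; 0.155 centred). Among 18626 genes and without centring, the gene most like Hk2 was Rbpj (0.993), followed by Sgk1 (0.986). Prickle1 (0.983) was most like Slc2a1, Sec61a1 (0.974) like Slc2a3, Glrx (0.988) like Pkm, Bag1 (0.990) like Ldha, and Fam174a (0.942) like Slc16a3. Stat4 (0.937) was most like Hk1, Reps1 (0.932) like Pfkp, Stk19 (0.978) like Aldoa and Zfp750 (0.976) like Pgk1. Centred within organ, the most like gene stayed the same for Slc2a1 (0.959), Ldha (0.983) and Pgk1 (0.976). It became Fmn1 (0.948) for Hk2, Frs2 (0.967) for Slc2a3, Nsd2 (0.953) for Pkm and Vamp4 (0.928) for Slc16a3. For Hk1, Pfkp and Aldoa it became Rpl36a (0.943), Nrip1 (0.956) and Glmp (0.959).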

How the data were processed

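Reads were trimmed with Trim Galore, aligned with STAR to mm10 without multi-mapped reads and assigned to genes with featureCounts by the authors, who deposited raw counts per gene; strand was not used, and the paired reads of the inducible line were treated as single reads. From these counts, genes with at least 1 CPM in as many libraries as the smaller group were kept, TMM factors computed and edgeR 4.0.16 (R 4.3.3) quasi-likelihood tests run with a prior count of 1, an FDR of 0.05 (Benjamini-Hochberg over all genes) and 95% intervals. The colonic comparison had the mouse number as a term in place of the cage. The study's methods describe 1 mouse of each genotype per cage, and that equal numbers share a cage was assumed. The organ contrasts had no such term. Identifiers matched GENCODE M21 (GRCm38) for 55394 of 55487 and 53706 of 53801 genes. Of 2 Aldoa identifiers, the one with the longer exons was used (the other had 1 to 23 reads). Shares of 50-base stretches were computed from the reference transcripts. Hk2, a low gene, had 123 to 180 reads in CD25- PP libraries and 475 to 980 in colonic ones. Its SD was 7.02% of the mean in iHET and 3.98% in iKO CD25- PP Tregs. In colonic Tregs it was 26.3% in iHET and 30.6% in iKO.

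Members and gene lists were chosen with earlier results of these data known. Named genes were Junb, the members, of each other list the called genes (at most 4 by p, or the 1 lowest p), some preset pathway genes, and the genes most like each member. The genotype tests and the iHET organ test were tried on counts simulated from the means and dispersions of these libraries. No effect of cage or sex and no outlying library was simulated, so the trial does not cover those. Alternatives were other tests (DESeq2 1.42.0 among them), scalings, filters, blocks, a joint fit and leaving out each library. A surface gate is not reported here.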

Additional observations from a re-analysis of the deposited data

Results flagged for a closer look

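Hk1 was singled out because its genotype difference ran in opposite directions in the 2 organs, without overlap of libraries in either. In CD25- PP Tregs it stood at 306 and 304 CPM in iHET and at 322 and 372 CPM in iKO, and in colonic Tregs at 348 to 349.8 CPM in iHET and at 289 to 318 CPM in iKO. The interaction on the log2 scale was -0.39 (95% interval -0.73 to -0.04), with an unadjusted p of 0.0317 and an adjusted p of 1 over 18626 genes in edgeR's quasi-likelihood test. It ranged from -0.49 to -0.28 when single libraries were left out. The difference therefore failed the correction, and the 2 genotype comparisons each failed it too.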

How the results depend on the processing

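The deviations of same-numbered libraries had r of 0.159 in YFPcre PP, 0.073 in CD25- PP, and 0.160, 0.294 and -0.021 in the colon. Libraries of unlike number had r of -0.159 in YFPcre PP, -0.073 in CD25- PP and -0.302 to 0.116 in the colon. With 2 libraries a group, the unlike values mirror the like ones, so these r cannot settle whether equal numbers are pairs. The study's methods give a cage term for the colon, and in the inducible line the number also goes with the labelled sex. With a replicate block, KO against HET PP Tregs gave 1015 genes instead of 409 and 2 members instead of 1 (Pfkp, adjusted p = 0.00923), iHET organ calls among members fell to 2 (Slc2a1 at 0.0692 and Pkm at 0.0574), genes called for the organ in iKO fell to 430 from 758, and Pgk1 turned to -0.12 between organs in iHET; without the block the colonic comparison still called 1 gene. In KO against HET PP Tregs the exact test called 689 genes, DESeq2 696 and no filter 1305, each with 2 members, Pfkp being the second (0.0352, 0.00398 and 0.0152). In CD25- PP Tregs, called genes rose from 0 to 43 (exact test), 35 (DESeq2), 232 (no filter), 1 (at least 10 counts in every library) and 1 (joint fit); in colonic Tregs from 1 to 25 (likelihood ratio test), 50 (DESeq2) and 24 (no filter). Organ calls rose to 2504 in iHET and 2233 in iKO with DESeq2 and to 2848 and 2348 without a filter, where 2 iKO members were called, and the interaction went from 0 to 2 and 282; Ldha there turned to -0.01 with DESeq2 and with its size factors. The causes were not tested. No other change of test, scaling or filter reversed a member.

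When single libraries were left out (a lone library being assumed to vary like the others), calls ran from 36 (without HET replicate 1) to 390 in YFPcre PP, 2 to 77 in CD25- PP with 0 to 1 members, 0 to 5 in the colon, 143 (without iHET PP replicate 2) to 1700 for the organ in iHET with 0 to 5 members, and 79 (without iKO PP replicate 1) to 1096 in iKO with 0 to 1 members; the interaction stayed at 0. Slc16a3 in KO PP Tregs passed in all 11 alternatives, from -1.46 to -1.12. Members that changed sign had log2 ranges, in YFPcre PP, of -0.13 to 0.03 for Hk1, -0.21 to 0.13 for Pgk1, -0.15 to 0.08 for Pkm, -0.07 to 0.02 for Ldha and -0.05 to 0.13 for Slc2a1; in CD25- PP, of -0.21 to 0.09 for Slc2a3, -0.05 to 0.03 for Pkm, -0.06 to 0.03 for Ldha, -0.02 to 0.14 for Pfkp, -0.13 to 1.45 for Slc16a3 and -0.46 to 0.01 for Pgk1; in the colon, of -0.17 to 0.50 for Pgk1, -0.10 to 0.21 for Ldha, -0.18 to 0.00 for Aldoa and -0.75 to 0.29 for Slc16a3; between organs in iHET, of -0.29 to 0.33 for Pgk1 and -0.96 to 0.62 for Slc16a3; and for the interaction, of -0.14 to 0.22 for Ldha. With 2 or 3 libraries a group, low members such as Hk2 and Pgk1 keep wide intervals.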
